A study of Mus musculus with 24 samples.

Results

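The 2 genes described here, Hspb1 and Hspb8, encode small heat shock proteins, and were taken as every gene whose array probe carries that symbol and no other in the platform annotation. They are 2 of the 6970 genes with such a probe in the series. Each had 1 probe, Hspb1 (probe 4305) on slide type 2 and Hspb8 (probe 736) on slide type 1. Cultured mouse embryos were heated at 43 °C for 15 min, put back at 37 °C and taken after 1 h, and the untreated controls were embryos cultured at 37 °C. Total RNA of both was compared on 24 arrays with 2 channels each. The arrays came from 3 numbered treatments, each with 4 arrays per slide type, of which 2 held the heat-shocked RNA in channel 1 and 2 in channel 2. Strain, embryonic stage and pooling of embryos are not given in the sources. Only ratios were deposited, so the tissue could not be checked by the level of its markers. In whole embryos, a changed share of cells of a type and a changed amount of RNA per cell cannot be told apart.

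Small heat shock proteins share an alpha-crystallin domain, form oligomers and hold unfolding proteins in a soluble state without using ATP, so that the Hsp70 machinery can refold them. Hspb1, also called Hsp25 in the mouse and Hsp27 in humans, is phosphorylated by Mapkapk2 downstream of the p38 kinase Mapk14, and has also been tied to the stability of actin filaments. Hspb8, or Hsp22, works mainly in a complex with the co-chaperone Bag3, which passes misfolded proteins to autophagy. Heat shock genes are turned on when heat shock factor 1 binds heat shock elements, repeats of the letters GAA in alternating orientation.

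Both genes lie on mouse chromosome 5 in GRCm38.p6, Hspb1 at chr5:135887919-135889563 on the plus strand and Hspb8 at chr5:116408491-116422864 on the minus strand. Their RefSeq promoters are shown because the heat shock element is the sequence by which this gene class is known to respond to heat. The lines below give the 250 bases before the annotated start of each gene, 5′ to 3′, with matches to GAANNTTC in capitals, followed by the 30 bases around the only match in the Hspb8 window.
Hspb1, chr5:135887669-135887918: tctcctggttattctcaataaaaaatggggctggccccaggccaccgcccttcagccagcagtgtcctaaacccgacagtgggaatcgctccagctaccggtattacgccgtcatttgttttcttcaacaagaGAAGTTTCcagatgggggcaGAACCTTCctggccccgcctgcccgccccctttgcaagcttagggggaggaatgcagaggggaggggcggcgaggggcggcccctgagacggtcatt
Hspb8, chr5:116422865-116423114: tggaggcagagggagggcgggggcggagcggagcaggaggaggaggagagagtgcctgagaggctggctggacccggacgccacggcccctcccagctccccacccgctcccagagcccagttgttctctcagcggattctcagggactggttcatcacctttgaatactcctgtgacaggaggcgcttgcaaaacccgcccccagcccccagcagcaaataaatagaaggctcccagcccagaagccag
Hspb8, chr5:116422844-116422873: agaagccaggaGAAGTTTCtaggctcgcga

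The search covered 250 bases before and 50 after each start. GAANNTTC reads the same on both strands, as does TTCNNGAA, the other phase of 2 units. Hspb1 held 2 matches of the first, GAAGTTTC from position -117 to -110 and GAACCTTC from -97 to -90. Hspb8 held 1, also GAAGTTTC, from position 3 to 10 after the start, and thus within the annotated transcript. TTCNNGAA occurred 0 times in either window, and neither window held a run of 3 alternating units. Of all 32851 RefSeq windows of this length, 7.86% held GAANNTTC, 8.52% held TTCNNGAA and 0.603% held 3 alternating units. A match describes the letters only.

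The values below are the authors' log ratios, centred on the median of each array and turned so that heat-shocked RNA always stands on the channel 1 side. The log base and the numerator are unstated. One unit is a factor of 2 in base 2 and of 2.72 in natural logs. A positive value means more RNA after heat shock if channel 1 was the numerator, and less if channel 2 was. The direction is thus not settled on either slide type. Some arrays of slide type 2 with the same channel order correlated below 0 over all probes (lowest r = -0.34, probes not being independent), so single arrays did not always read alike there. After both channel orders were averaged the treatments correlated at r = 0.82 to 0.90 on that slide type. Array medians before centring ran from -0.67 to 0.65 on slide type 1 and from -1.51 to 0.24 on slide type 2. The labels do not tie the treatments to separate litters, so the spread between these 3 treatments may be technical, and their number limits the precision. The limma p-values rest on that spread and on a variance prior drawn from all probes of the slide type.

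Hspb1 was the probe with the largest mean log ratio of all 7680 on slide type 2, on the positive side in 12 of 12 arrays. In treatment 1 its values were 2.60 and 1.86 where channel 1 held the heat-shocked RNA, and 2.19 and 2.05 where channel 2 did. In treatment 2 they were 2.80 and 2.67 in the first order and 1.83 and 1.80 in the second. In treatment 3 they were 2.23 and 2.16, then 2.28 and 2.28. No array lay near 0, and treatment 2 stood out by the distance between its channel orders and not by its mean. As deposited, before turning and centring, the probe read 1.30 to 2.36 in the first channel order and -3.29 to -1.97 in the second, so its sign followed the heat-shocked sample in every array.

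Averaged over its 4 arrays, each treatment gave Hspb1 nearly the same value, with 2.18, 2.28 and 2.24. The mean was 2.23 ± 0.05 (SD, n = 3 treatments, 95% interval 2.10 to 2.36), a change on the positive side by limma's moderated test over all probes (adjusted p = 3.4e-09). With the sign mirrored the same result reads -2.23 (95% interval -2.36 to -2.10). A t test on the 3 treatments without moderation of the variance gave an adjusted p of 0.0374. In base 2 the mean is a factor of 4.69 (4.3 to 5.12), and in natural logs one of 9.29 (8.19 to 10.5). Calls were common on slide type 2, with 28.9% of probes positive and 24.4% negative (2219 and 1877 probes, against 422 and 135 without centring and 3283 and 1205 with centring on probes of 1 symbol). The call of Hspb1 is thus shared with many probes, and its size is not. The next probe in order, which has no single symbol, had a mean of 1.87, and the one after it, Txnip, 1.85. An SD below that of Hspb1 was found in 18.9% of the probes, against a median SD of 0.093.

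The rank of a probe within its own array depends neither on the base of the log nor on centring. Hspb1 ranked first on 3 of 12 arrays and among the first 5 on 11 of 12. Its lowest place was 13 of 7680, on an array of treatment 1 with heat-shocked RNA in channel 2. If the numerator is the other channel, these are places from the bottom.

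**Figure D1:**
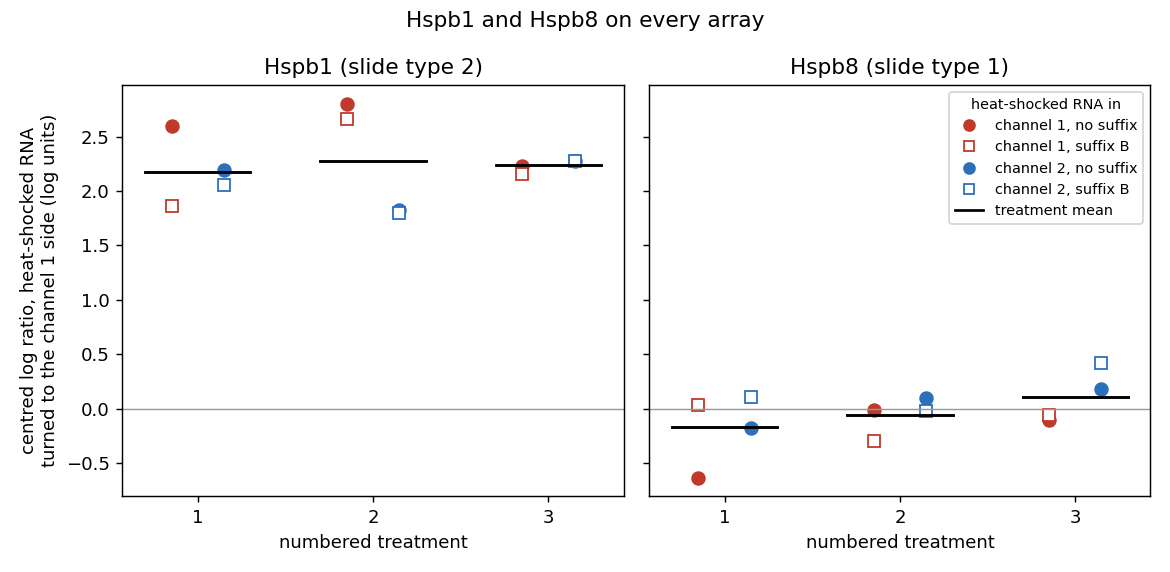
Centred log ratio of Hspb1 (left, slide type 2) and Hspb8 (right, slide type 1) on every array, in log units, by numbered treatment; colour gives the channel of the heat-shocked RNA, open squares mark arrays with a suffix B in the slide code, and black lines are treatment means. All 12 Hspb1 arrays lie between 1.80 and 2.80, whereas the 12 Hspb8 arrays lie between -0.64 and 0.42, around 0.

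Hspb8 showed no change that passed the test. In treatment 1 its values were -0.64 and 0.04 in the first channel order, and -0.18 and 0.11 in the second. In treatment 2 they were -0.02 and -0.30, then 0.10 and -0.02. In treatment 3 they were -0.11 and -0.06, then 0.18 and 0.42. Of the 12 arrays 5 were positive and 7 negative, and the array farthest from 0 (-0.64) stood beside a partner with the suffix at 0.04 in the same treatment and channel order.

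The treatment values of Hspb8 were -0.17, -0.06 and 0.11. Their mean was -0.04 ± 0.14 (SD, n = 3 treatments, 95% interval -0.19 to 0.11, limma adjusted p = 0.812), or 0.04 with the sign mirrored. The interval spans factors of 0.877 to 1.08 in base 2 and of 0.828 to 1.12 in natural logs. Calls were fewer on slide type 1, with 11% of probes positive and 5.09% negative (844 and 391 probes, against 1210 and 14 without centring and 996 and 221 with centring on probes of 1 symbol). The mean lay above that of 39.5% of all probes, and the SD was larger than that of 73.2% of them, against a median SD of 0.098. Its sign was not settled by the data: without centring the mean was 0.26 (limma adjusted p = 0.173) while the median of all genes there went from -0.04 to 0.27, and without treatment 1 it was 0.02.

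**Figure D2:**
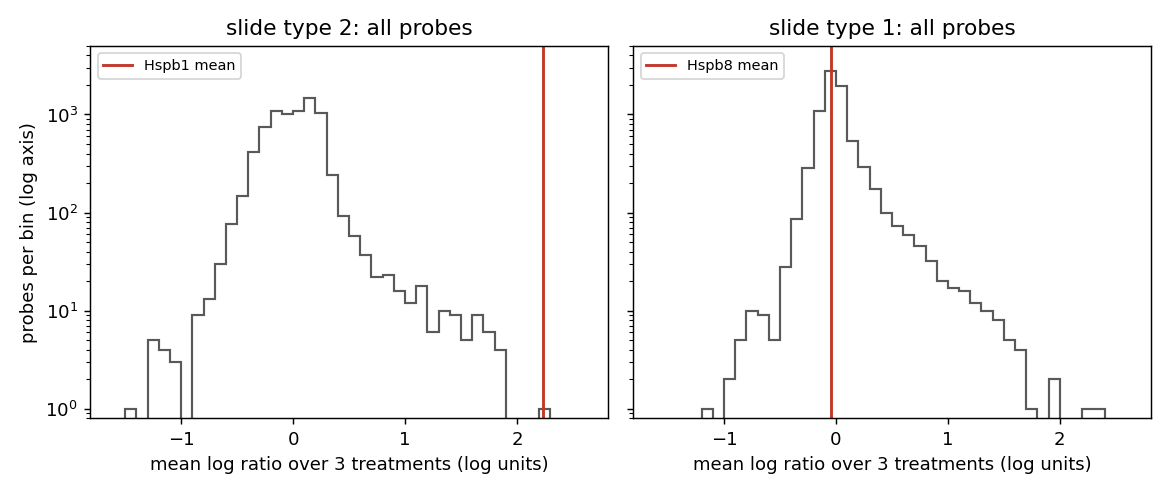
Number of probes (log axis) by mean log ratio over 3 treatments, in bins of log units, for slide type 2 (left) and slide type 1 (right), with the mean of the member probe as a red line. Hspb1 at 2.23 lies alone beyond all other probes of its slide type, and Hspb8 at -0.04 lies at the peak of its own.

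Set side by side, Hspb1 exceeded Hspb8 by 2.34, 2.34 and 2.13 units in treatments 1, 2 and 3, a mean difference of 2.27 ± 0.12 (SD, n = 3). The exact two-sided sign permutation test gave p = 0.25, the smallest that 3 pairs can give, and the probes sit on different slide types that were not normalised together. The only other small heat shock protein of the 11 in the list that was measured was Cryab, alpha-B-crystallin, a chaperone of lens and muscle. Cryab gave -0.47, 0.04 and 0.18 on slide type 2, with a mean of -0.08 ± 0.34 (SD, n = 3) that did not pass (limma adjusted p = 0.461 over genes). It passed at -0.21 without treatment 3 (limma adjusted p = 0.0495) and had 0.11 without treatment 1. Hspb1 was above Cryab by 2.05 to 2.64 units in all 3 treatments on the same slides (exact p = 0.25).

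The channel that held the heat-shocked RNA was compared for each gene within treatments. Hspb1 had 2.39 ± 0.30 in the first order and 2.07 ± 0.24 in the second (SD, n = 3 treatments each). The difference between orders was 0.11, 0.92 and -0.08 in treatments 1, 2 and 3, with a mean of 0.32 (95% interval -0.55 to 1.18, limma adjusted p = 0.787). The value of 0.92 in treatment 2 carried most of it, and without that treatment the mean was 0.01. On slide type 2 the order called 0.013% of all probes, and 39.6% of them had a smaller difference than Hspb1. Few calls do not mean small differences there: the median absolute difference was 0.398, against 0.226 on slide type 1.

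Hspb8 lay lower with heat-shocked RNA in channel 1 in each of the 3 treatments, by -0.26, -0.20 and -0.38. The mean in the first order was -0.18 ± 0.11 and in the second 0.10 ± 0.18 (SD, n = 3). The difference of -0.28 (95% interval -0.54 to -0.02) did not pass after adjustment (limma unadjusted p = 0.0374, adjusted p = 0.106). On slide type 1 the order called 22.2% of probes, and 60.2% of all probes there had a smaller difference than Hspb8.

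Partners of Hspb8 were compared with it on slide type 1, as averages of a gene's probes. This list, like those below, was chosen with earlier results of these data known. Of 4 partners measured there, 1 was changed on the positive side and none on the negative side, against 5.73% and 5.65% of all genes, and their median was 0.14 against -0.04 over all genes. The changed one was Bag3, the scaffold of the complex, at 0.62, 0.62 and 0.95, with a mean of 0.73 ± 0.19 (SD, n = 3, limma adjusted p = 0.000186 over genes). Bag3 stood above Hspb8 in each treatment, by 0.79, 0.68 and 0.84 units (mean of Hspb8 minus Bag3 -0.77 ± 0.08, exact p = 0.25). Both are on the same slides, so this distance does not depend on centring by the median of each array.

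The other partners did not pass. Hspa8, the constitutive Hsp70, gave 0.02, 0.70 and 0.12 on slide type 1 and averaged 0.28 ± 0.37 (limma adjusted p = 0.15), with treatment 2 well above the rest. It passed without centring at 0.58 (limma adjusted p = 0.00809). On slide type 2 the same gene averaged -0.03 ± 0.26 and passed on the negative side without treatment 2, at -0.18. Stub1, the ubiquitin ligase CHIP, averaged -0.11 ± 0.13, and Dnajb6, an Hsp40 co-chaperone, 0.00 ± 0.11 with probes at 0.00 and 0.00.

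Kinases of the p38 cascade, which acts on the Hspb1 protein, gave 2 negative changes and no positive one among 2 genes measured on slide type 2, where 31.9% of all genes were called negative and 18.5% positive. Mapkapk2, the kinase that phosphorylates Hspb1, had -0.29, -0.49 and -0.22 (mean -0.34 ± 0.14, limma adjusted p = 0.000485). Mapk14, p38 alpha, had -0.14, -0.21 and -0.15 (mean -0.17 ± 0.04, limma adjusted p = 0.0229). All 3 treatments lay on the side opposite to Hspb1 for both kinases, at a much smaller size. Neither call held without centring, where Mapkapk2 had -0.25 and Mapk14 -0.08, and Mapk14 also lost its call without treatment 1 or without treatment 3 (limma adjusted p = 0.0878 and 0.117). On slide type 1 none of 3 members passed, with Map2k6 and Map2k3, which activate p38, at -0.07 ± 0.07 and -0.01 ± 0.17 and the kinase Mapkapk5 at -0.05 ± 0.21.

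Other chaperones known as targets of heat shock factor 1 were measured beside both genes. On slide type 1, 5 of 10 were changed on the positive side and none on the negative side, against 5.73% and 5.65% of all genes, with a median of 0.26 against -0.04. On slide type 2, 3 of 4 were positive and none negative, against 18.5% and 31.9% of all genes, with a median of 0.40 against -0.05. Chordc1, the fourth, had -0.14 ± 0.31 there and passed on the negative side without treatment 2, at -0.31. Hsph1, an Hsp110 exchange factor of Hsp70, was closest to Hspb1 in size among these chaperones. On slide type 1 it had 1.90, 2.85 and 2.10 (mean 2.28 ± 0.50, limma adjusted p = 1.1e-05), much farther apart than the treatments of Hspb1. Hspb1 sits on slide type 2, and the slide types were not normalised together, so size and spread are only set side by side.

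The remaining changes were smaller than that of Hspb1. Hsp90aa1, the inducible cytosolic Hsp90, had 0.86, 1.69 and 0.87 on the slides that carry Hspb1, a mean of 1.14 ± 0.48, so that Hspb1 was higher by 1.32, 0.58 and 1.36 units (exact p = 0.25). On slide type 1 Hsp90aa1 had 1.18 ± 0.35 over 7 probes (0.895 to 1.31). Dnajb1, an Hsp40 protein that is strongly heat-inducible, had 0.68 ± 0.19 (probes at 0.457 and 0.895), and the mitochondrial chaperonin Hspd1 0.54 ± 0.22, both on slide type 1. Dnaja1, another Hsp40, and Hspa4l, of the Hsp110 family, had 0.43 ± 0.37 and 0.38 ± 0.19 on slide type 2. Dnaja1 also passed on slide type 1 at 0.41 ± 0.22 (limma adjusted p = 0.00899), where its probes were far apart at 0.15 and 0.67. Treatment 2 was the highest of the 3 for Hsph1, Hsp90aa1, Hspd1, Dnaja1 and Hspa4l, as it was for Hspb1, whose treatments lay between 2.18 and 2.28. For Dnajb1, treatments 2 and 3 were close, at 0.78 and 0.79. Heat shock factors themselves were not analysed here.

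**Figure D3:**
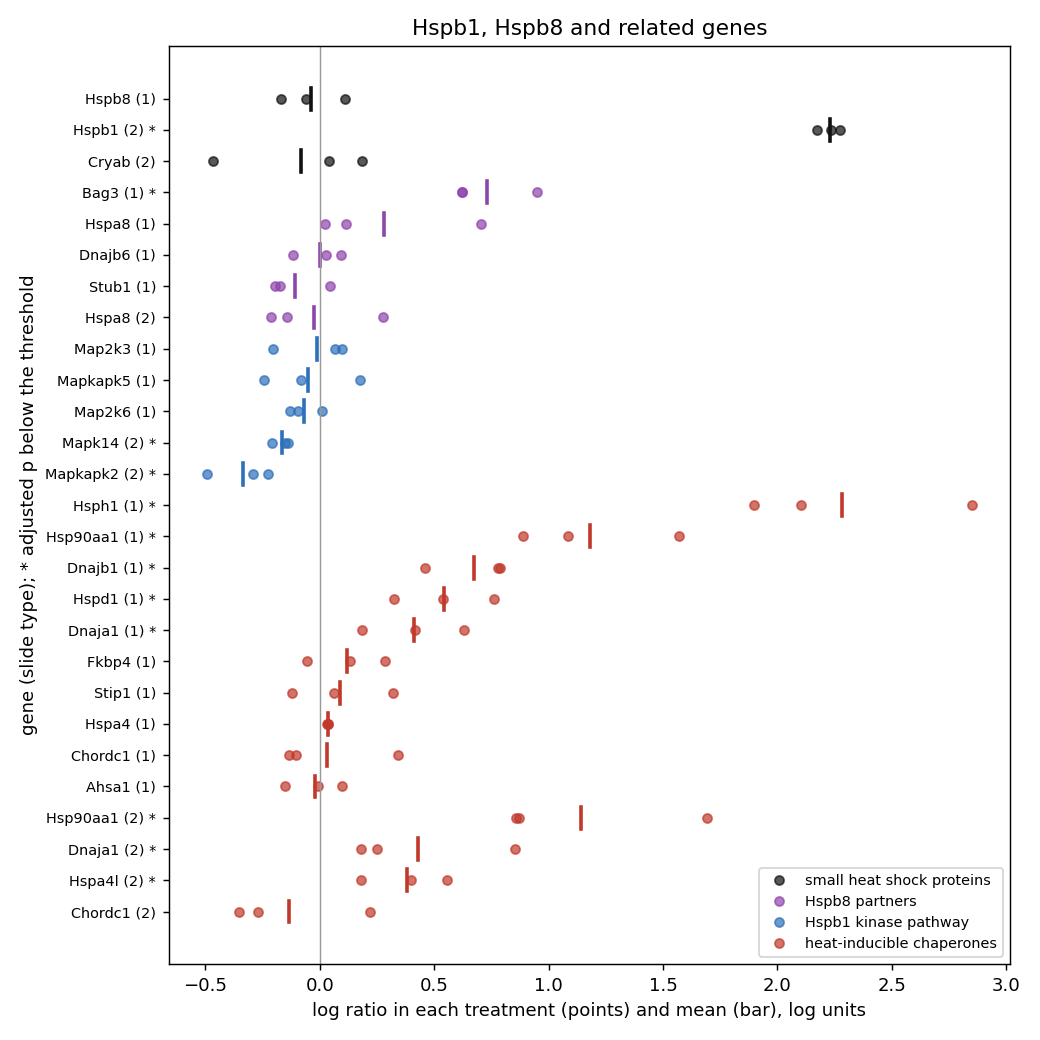
Log ratio of Hspb1, Hspb8 and the genes of 4 lists in each of 3 treatments (points) with the mean (vertical bar), in log units; the number in brackets is the slide type and an asterisk marks genes past the adjusted threshold of 0.05. Hspb1 at 2.23 and Hsph1 at 2.28 lie far to the right, Bag3 lies at 0.73, and Hspb8 and Cryab spread around 0.

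Of the tissue marker lists, 7 genes were measured on slide type 1, where 1 was negative and none positive against 5.65% and 5.73% of all genes. On slide type 2, 4 were measured, of which 1 was positive and none negative against 18.5% and 31.9% of all genes. Tnnt1, a skeletal muscle troponin, had 0.26 ± 0.02 on slide type 2 and Tubb3, a neuronal tubulin, -0.21 ± 0.04 on slide type 1 (SD, n = 3, limma adjusted p = 0.0013 and 0.0359). Neither call held without centring (0.35 and 0.09), and that of Tubb3 was also lost without treatment 1 or without treatment 2. On the slides of Hspb1 the embryonic globins Hbb-y and Hba-x had -0.14 ± 0.01 and -0.12 ± 0.12 and the haem enzyme Alas2 0.09 ± 0.06. Hbb-y passed without treatment 2, at -0.14 (limma adjusted p = 0.0455). Its side changed with the channel order, from 0.12 with heat-shocked RNA in channel 1 to -0.39 in channel 2. The small SD of Hbb-y is thus that of averages over opposite orders. Alas2 also changed side (0.26 and -0.09), and Hba-x did not (-0.08 and -0.17). On the slides of Hspb8 the erythroid factor Gata1 had 0.06 ± 0.06 and the neural progenitor filament Nes -0.11 ± 0.05. The yolk sac genes Apoa1, Ttr, Apob and Apoa4 lay between -0.07 and 0.04 there. Members of the heart muscle list were not analysed here. The part of tissue composition in the values of Hspb1 and Hspb8 was not tested.

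The 5 single-symbol probes most like Hspb1, by the root mean square difference over the 12 arrays of slide type 2, were Mst1r (0.505), Txnip (0.52), Cacna1d (0.615), Pafah1b1 (0.653) and Atp5g1 (0.749). Mst1r, a receptor tyrosine kinase, had a mean of 1.78 ± 0.06, and Txnip, the thioredoxin-interacting protein, 1.85 ± 0.22. Cacna1d, a calcium channel subunit, had 1.67 ± 0.07, Pafah1b1, the dynein regulator Lis1, 1.64 ± 0.08, and Atp5g1, a subunit of ATP synthase, 1.57 ± 0.04. None of them is a heat shock protein. All lay below Hspb1 in the mean, as every other probe of slide type 2 did. They were picked for a small difference from Hspb1 over these same arrays, so their high means were set by the choice. The list shows which probes read alike on these arrays and no more.

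**Figure D4:**
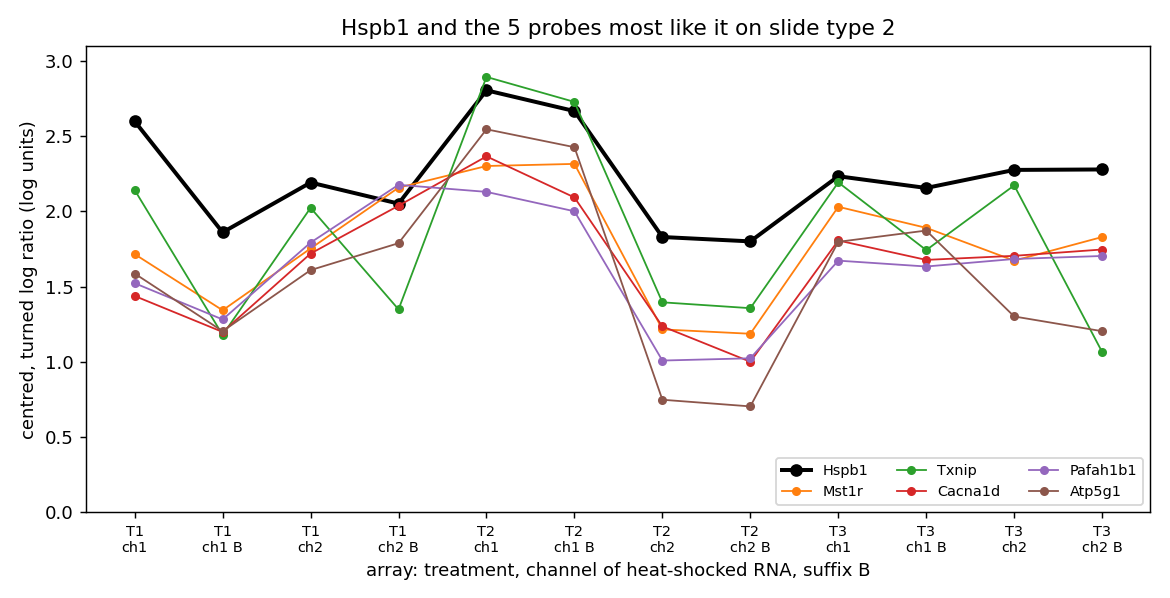
Centred log ratio of Hspb1 (black) and the 5 probes most like it on the 12 arrays of slide type 2, in log units, in order of treatment (T), channel of the heat-shocked RNA (ch) and suffix B. In treatment 2 all 6 probes are higher with heat-shocked RNA in channel 1 than in channel 2, as Hspb1 is with 2.80 and 2.67 against 1.83 and 1.80.

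The probes most like Hspb8 on slide type 1 were those of Tcf19, Smagp, Fam90a1a, Orc2 and C1qtnf6, with differences of 0.0709 to 0.0832. Their means ran from -0.06 to -0.01, and none passed the test. Over the 12 arrays their lowest values were -0.62 to -0.55 and their highest 0.25 to 0.45, beside -0.64 and 0.42 for Hspb8, whose array values had an SD of 0.261. They were picked for a small difference from Hspb8 over these same arrays, so their likeness in swings and mean was set by the choice.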

How the data were processed

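Per the labels, 24 arrays compared total RNA of heat-shocked and control embryos in 2 channels, with 3 numbered treatments and 2 slide types. The values are the authors' deposited log ratios, treated as a score: the sources used here give no log base, numerator, background correction or normalization. Each table held 7680 probes and 12 arrays, with 0 missing values and 0 unmapped columns. The channel of the heat-shocked RNA came from the labels' source names. Each array was centred on its median and turned. The 2 arrays of a channel order were averaged, then the 2 orders, to 1 value per treatment, and the 3 treatments were the replicates. One of the 2 arrays has a suffix B in its slide code, which is otherwise that of its partner. The meaning of the suffix is not stated, nor whether the 2 arrays are separate slides. On slide type 1, the slide code for treatment 3 with heat-shocked RNA in channel 2 differs from the code in the treatment name.

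Intercepts were tested with limma 3.58.1 (lmFit, eBayes) in R 4.3.3 over all probes of a slide type, or over genes with 1 symbol for lists, with Benjamini-Hochberg adjustment at 0.05. The fit was tested on simulated data. The 2 tables stayed separate. Members, lists and tests were chosen with earlier results of these data known. The naming rule took both members, up to 4 list genes of smallest p per slide type and the 5 nearest probes. Txnip's rank and the remark on Chordc1 were added after their values were seen. So were Dnaja1 on slide type 1 and the values of list genes by channel order. RefSeq promoter windows (GRCm38.p6) matched both genes by symbol. Alternatives covered centring, scaling, array selection, the variance prior and leaving out treatments.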

Additional observations from a re-analysis of the deposited data

How the results depend on the processing

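The change of Hspb1 kept its side and its call under all 16 alternatives, with values from 2.07 (heat-shocked RNA in channel 2 only) to 2.61 (arrays scaled to a common spread) and a largest adjusted p of 0.0374, without moderation of the variance. Leaving out treatments gave 2.21 to 2.26. Hspb8 passed in none of its 16 alternatives (smallest adjusted p = 0.0842, at -0.18 with heat-shocked RNA in channel 1 only). It turned positive without centring (0.26), with centring on probes of 1 symbol (0.0025), with heat-shocked RNA in channel 2 only (0.10), on arrays with suffix B only (0.031) and without treatment 1, with a range over left-out treatments of -0.11 to 0.024. With the 12 arrays as single values and treatment as a replicate block, Hspb1 had 2.23 (limma adjusted p = 2.46e-15) and Hspb8 -0.04 (limma adjusted p = 0.795). Neither call changed. The correlation within blocks was estimated at -0.215 on slide type 2 and 0.067 on slide type 1. Repeat arrays were therefore hardly discounted on slide type 1. On slide type 2 the negative value credited them with more than independent arrays would carry, so the p-value of Hspb1 there is too small. Neither p-value stands for 12 independent samples. The difference of Hspb1 between channel orders turned to -0.98 without centring, since the uncentred medians were mostly negative in both orders and the turn reverses their sign in one, and again did not pass (adjusted p = 0.302).

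Over 120 alternatives for 30 values of related and marker genes, 87 kept side and call, 7 lost a call, 5 gained one and 21 changed side, none of the last past the test. Without centring, the side changed for Stub1 (0.19), Map2k3 (0.29), Map2k6 (0.23), Mapkapk5 (0.25), Tubb3 (0.094), Nes (0.20), Apoa1 (0.24), Apoa4 (0.29), Cryab (0.0026) and Hspa8 on slide type 2 (0.057). Leaving out 1 treatment gave ranges across 0 for Dnajb6 (-0.046 to 0.059), Map2k3 (-0.069 to 0.082), Mapkapk5 (-0.16 to 0.047), Apoa1 (-0.14 to 0.063), Apoa4 (-0.060 to 0.078), Apob (-0.013 to 0.062), Cryab (-0.21 to 0.11) and Hspa8 on slide type 2 (-0.18 to 0.066). The share of probes called on either side was 16.1% on slide type 1, with 0.0391% (no moderation) to 31.3% (heat-shocked RNA in channel 1 only) under the alternatives, and 53.3% on slide type 2, with 1.35% (no moderation) to 64.1% (without treatment 2). Where no cause is named, the cause was not tested. Dim and saturated spots could not be told from others, because only ratios were used.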

Other observations

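The 5 probes most like Hspb8 had probe numbers 538, 732, 928, 1121 and 1308 out of 7680, beside 736 for Hspb8. The 5 numbers stand in roughly even steps, and only 732 is next to 736. Whether the number follows the place on the slide is not stated. After this was seen, each array was also centred on the median of the probes nearest in number. Over the 12 arrays those medians ran from -0.09 to 0.19 around Hspb8, and the SD of its array values went from 0.261 to 0.221. Its mean was then -0.05 (limma adjusted p = 0.701) and its difference between channel orders -0.19 in place of -0.28. The lowest Hspb8 array, at -0.64, had a neighbourhood median of -0.09. The same centring gave Hspb1 2.19 (limma adjusted p = 1.77e-07), and the SD of its array values went the other way, from 0.328 to 0.367. The numbers of the probes most like Hspb1 ran from 406 to 7529.

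Arrays with and without suffix B of the same treatment and channel order differed by 0.003 to 0.738 units for Hspb1 (median 0.108 over 6 pairs) and by 0.052 to 0.671 for Hspb8 (median 0.263). For Hspb1 the array without the suffix was the higher in 5 of 6 pairs, and for Hspb8 in 2 of 6. The largest differences of both genes came from the same setting on both slide types, treatment 1 with heat-shocked RNA in channel 1.

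Atp5g1, among the probes most like Hspb1 at 1.57, has a second probe on slide type 2, which had a mean of -0.39. Each of the other 4 has 1 probe there, so their values had no second probe to be set against, as was the case for Hspb1 and Hspb8.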
